A study of Homo sapiens with 9 samples.

Results

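The 10 genes of fatty acid synthesis and desaturation described here were followed across the 9 libraries of a study of apatinib in HSC-3, a human line from an oral squamous carcinoma. They are SREBF1, ACLY, ACSS2, ACACA, ACACB, FASN, ELOVL6, SCD, FADS1 and FADS2, taken by symbol from the 60612 genes of the deposited table. All 10 passed the filter on low counts that 16990 genes passed. The resistant line, labelled MPTN, had been grown with apatinib until it was resistant, and MPTN24 is read here as HSC-3 exposed to the drug for 24 h, because of its number; the labels spell out neither name. WT is the parental line. Each group had 3 libraries, and all are derivatives of a single line in culture. Apatinib is an inhibitor of the VEGF receptor KDR. Whether the MPTN cells were still in drug at harvest is not stated, nor is the origin of the replicates, so p-values measure the spread between libraries, which may be technical.

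Fatty acid synthesis starts from cytosolic acetyl-CoA, made from citrate by ACLY or from acetate by ACSS2. The carboxylases turn it into malonyl-CoA, FASN builds palmitate from malonyl-CoA, ELOVL6 lengthens palmitate towards stearate, and SCD puts the first double bond into these saturated chains. FADS1 and FADS2 desaturate polyunsaturated fatty acids. SREBF1 encodes the SREBP1 transcription factors, membrane-bound precursors that are cut and sent to the nucleus, and whose known targets include the genes of these enzymes. The nuclear receptors of oxysterols, the LXRs, are known to raise transcription of SREBF1. Many tumours make fatty acids in this way even when lipid is at hand.

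Promoter sequences are shown for the regulator, for SCD, the member with the highest group means, and for ACLY, which fell in MPTN while SREBF1 rose. They come from RefSeq on GRCh38.p14, read 5′ to 3′ on the strand of the gene, and leave out bases inside annotated exons. The table held windows for 9 of the 10 members, all but FASN, and 15 windows in all. Capitals mark exact matches to CCAAT, bound by NF-Y, or to GGGCGG, bound by Sp1, on either strand (ATTGG and CCGCCC are their reverse complements).
SREBF1 (chr17:17837012-17837236, minus strand): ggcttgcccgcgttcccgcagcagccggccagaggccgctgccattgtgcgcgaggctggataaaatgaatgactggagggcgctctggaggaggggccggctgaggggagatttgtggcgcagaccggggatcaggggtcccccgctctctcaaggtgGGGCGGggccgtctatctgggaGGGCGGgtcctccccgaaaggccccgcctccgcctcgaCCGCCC
ACLY (chr17:41919023-41919272, minus strand): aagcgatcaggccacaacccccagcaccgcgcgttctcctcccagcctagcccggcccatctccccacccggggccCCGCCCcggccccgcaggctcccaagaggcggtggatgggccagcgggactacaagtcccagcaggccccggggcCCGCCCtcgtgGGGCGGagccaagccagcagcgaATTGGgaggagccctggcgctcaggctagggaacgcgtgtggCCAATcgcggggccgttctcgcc
SCD (chr10:100346983-100347123, plus strand): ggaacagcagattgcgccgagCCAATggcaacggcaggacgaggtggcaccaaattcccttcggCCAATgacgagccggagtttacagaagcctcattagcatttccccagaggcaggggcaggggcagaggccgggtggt
In the 250 bases before the start, the SREBF1 window held 3 matches to GGGCGG and 0 to CCAAT. Of 2 overlapping ACLY windows, the one shown held 3 matches to GGGCGG and 2 to CCAAT, and the other held 4 and 2. Both lie inside the span of ACLY in the deposited table (41866917 to 41930542, minus strand). They therefore precede a RefSeq transcript start within that span, not its outer end. The SCD window held 2 to CCAAT, both shown, and 2 to GGGCGG nearer the start, outside the printed run. CCAAT was met in 32% and GGGCGG in 42.6% of the 35116 promoter windows of the same length in the table. TCACNCCAC, a core of the sterol regulatory element, was found in 0 of the 15 member windows and in 0.883% of all windows, and CACGTG in 0 of the 15 and in 6.34%. AGGTCA, a site of nuclear receptors, was found in 12.1% of all windows, and among the members in 1 window each of ACACA and ELOVL6. These matches describe letters in short windows only.

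Libraries held 60383313 to 98890929 estimated counts. Levels below are CPM, scaled by TMM factors, unless FPKM is named. WT 1 differed from the other WT libraries in most of these genes and is named wherever WT values are given by library; WT means and ranges include it. Mitochondrially encoded transcripts took 4.66% to 5.13% of counts in MPTN, 5.04% to 5.73% in MPTN24, 4.74% in WT 1, and 2.72% and 3.02% in WT 2 and WT 3; the part of this difference in the results was not tested. The squamous markers KRT5, KRT14, KRT6A, KRT17, TP63, SFN and DSG3 summed to 13370 to 15400 CPM in MPTN, 12590 to 13850 in MPTN24 and 12400 to 18810 in WT. All 5 leukocyte markers, among them PTPRC and CD3E, were at 0 in all 9 libraries. The 4 fibroblast markers summed to 11.5 to 11.9 CPM in MPTN, 12.3 to 14.8 in MPTN24 and 10.5 to 17.4 in WT. Most of that sum was COL1A1, at 9.42 to 14.7 CPM. The 3 endothelial markers summed to at most 1.38 CPM. Of 3 adipocyte markers, ADIPOQ and LEP were at 0 everywhere and the sum stayed at or below 0.307 CPM; hepatocyte markers stayed at or below 0.934 CPM. In bulk RNA, fewer cells with a transcript and less of it per cell cannot be told apart.

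The pathway as a whole took 0.346% to 0.391% of counts in MPTN, 0.598% to 0.637% in MPTN24, 0.111% in WT 1, and 0.334% and 0.295% in WT 2 and WT 3. MPTN24 was therefore above every other library, MPTN slightly above WT 2 and WT 3, and WT 1 lowest. SCD and FASN carried most of this sum.

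**Figure D1:**
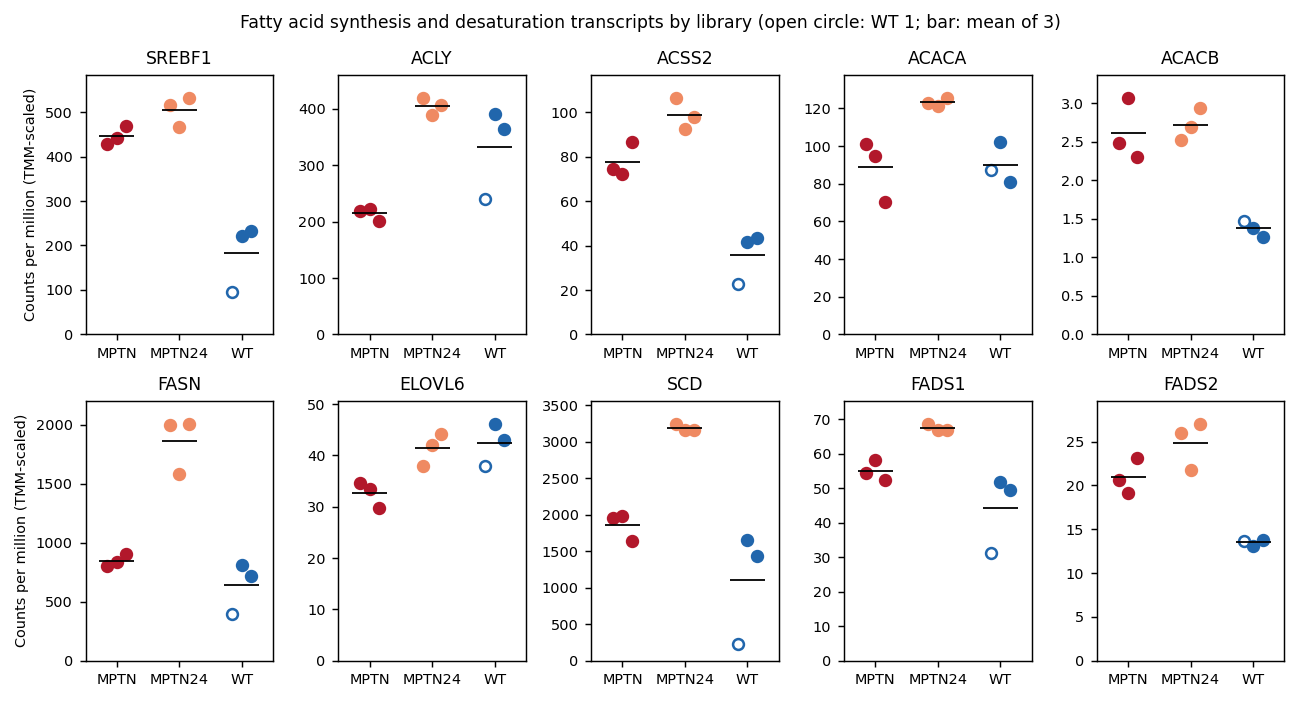
Level of each of the 10 transcripts in CPM (TMM-scaled, linear axes from 0) in the 3 libraries of MPTN, MPTN24 and WT. Filled points are libraries, the open circle is WT 1, and bars are the mean of 3 libraries. MPTN24 has the highest mean for every transcript but ELOVL6, and WT 1 lies far below the other libraries for SCD at 229 CPM.

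In MPTN24 against WT, 7 of the 10 transcripts rose, 0 fell and 3 did not pass the test, where 23.2% of all tested genes were called in either direction and 11.1% were called higher and 12.1% lower. The call is a p under 0.05 in the quasi-likelihood test of edgeR after adjustment by Benjamini-Hochberg over all tested genes. The median log2 change of the 10 was 0.93, against 0.005 over all tested genes. Without WT 1, 8 rose and 0 fell, beside a background of 27.3% (12.9% higher, 14.4% lower), and the median was 0.96. In MPTN against WT, 4 rose, 2 fell and 4 did not pass, beside a background of 36.4% (18.3% higher, 18.1% lower), and the median was 0.52. Without WT 1 the counts were also 4 and 2, beside a background of 37.1% (18.4% higher, 18.7% lower), and the median was 0.21. In MPTN against MPTN24, 0 rose and 3 fell, beside a background of 14.5% (7.85% higher, 6.70% lower), with a median of -0.34. Without WT 1, which is in neither of these groups, 7 fell, beside a background of 20.3% (10.5% higher, 9.81% lower), and the median stayed at -0.34: the estimates barely moved and their standard errors became smaller. The groups did not overlap for 8, 7 and 7 of the 10 in the 3 comparisons in that order, against 38.0%, 47.5% and 37.8% of all tested genes. The comparisons share libraries, so they are not independent of each other.

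**Figure D2:**
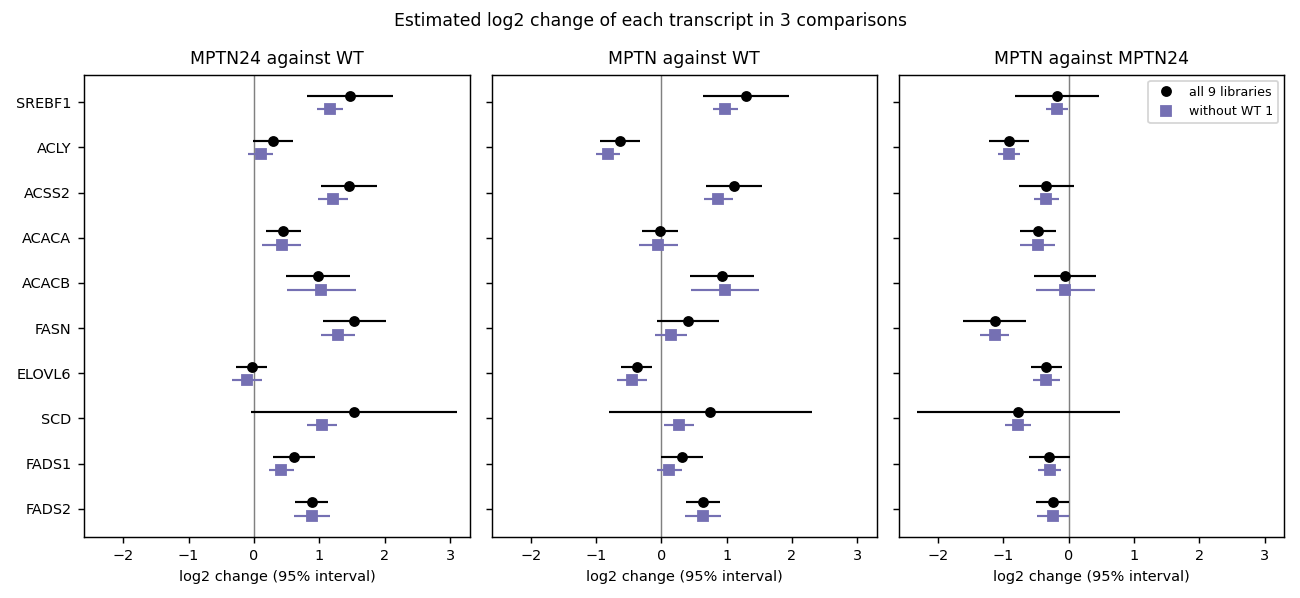
Log2 change of each transcript (x axis, with its 95% interval) in 3 comparisons, from edgeR's quasi-likelihood fit to all 9 libraries (circles) and to 8 libraries without WT 1 (squares). The interval of SCD runs from -0.05 to 3.10 in MPTN24 against WT with all libraries and from 0.81 to 1.28 without WT 1; values of ELOVL6 in MPTN24 against WT and of ACACA in MPTN against WT lie near 0 and change sign with upper-quartile scaling.

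The regulator SREBF1 (ENSG00000072310, GRCh38 chromosome 17, 17810399 to 17837011, minus strand) was raised in both drug-exposed groups. It was at 429, 441 and 468 CPM in MPTN, 516, 467 and 531 CPM in MPTN24, 95.2 CPM in WT 1, and 220.2 and 232 CPM in WT 2 and WT 3. No MPTN or MPTN24 library overlapped WT, while MPTN and MPTN24 overlapped each other. SREBF1 rose 2.77-fold in MPTN24 over WT (log2 change 1.47 ± 0.29 SE, edgeR adjusted p = 0.0091) and 2.44-fold in MPTN over WT (1.29 ± 0.29, edgeR adjusted p = 0.0082). Without WT 1 the folds were 2.23 and 1.97 (edgeR adjusted p = 4.87e-06 and 4.49e-06). Between MPTN and MPTN24 the log2 change was -0.18, with an interval of -0.83 to 0.47 (edgeR adjusted p = 0.749). The counts are per gene and do not separate the SREBP1 isoforms, and 6.92% of the exonic bases of SREBF1 are shared with RAI1 on the other strand, a gene at 83.9 CPM on average.

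The acetyl-CoA enzymes went different ways. ACSS2 (ENSG00000131069, chromosome 20, 34872146 to 34927962), the acetate-using synthetase, was at 74.3, 72.4 and 86.7 CPM in MPTN, 106, 92.3 and 97.6 CPM in MPTN24, 22.8 CPM in WT 1, and 41.4 and 43.6 CPM in WT 2 and WT 3. Its 3 groups did not overlap at all. ACSS2 rose 2.74-fold in MPTN24 over WT (log2 change 1.46 ± 0.20, edgeR adjusted p = 0.000622) and 2.16-fold in MPTN over WT (1.11 ± 0.20, edgeR adjusted p = 0.000955). MPTN against MPTN24 gave -0.34 ± 0.19 (edgeR adjusted p = 0.275), which became a fall without WT 1 (edgeR adjusted p = 0.0169) at the same estimate.

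ACLY (ENSG00000131473, chromosome 17, 41866917 to 41930542, minus strand), the citrate-splitting enzyme, was lowest in MPTN. It was at 219, 223 and 202 CPM in MPTN, 419, 389 and 407 CPM in MPTN24, 241 CPM in WT 1, and 391 and 365 CPM in WT 2 and WT 3. Every MPTN library lay below every other library, and MPTN24 overlapped WT. ACLY fell by 0.63 ± 0.14 on the log2 scale in MPTN against WT (edgeR adjusted p = 0.0034; fell by 0.82 without WT 1) and by 0.92 ± 0.14 in MPTN against MPTN24 (edgeR adjusted p = 0.000918). In MPTN24 against WT it changed by 0.29, with an interval of -0.02 to 0.59 (edgeR adjusted p = 0.167). In MPTN against WT, the ACLY transcript was thus lower and the ACSS2 transcript higher. Other genes around citrate went both ways in that comparison. SLC25A1, the carrier that exports mitochondrial citrate, rose, while CS and PDHA1 fell (values below). The use of either route by the cells was not tested.

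The carboxylases, which make malonyl-CoA, also differed. ACACA (ENSG00000278540, chromosome 17, 37084992 to 37406836, minus strand), the cytosolic enzyme of synthesis, was at 101, 94.5 and 70.4 CPM in MPTN, 123, 121 and 125 CPM in MPTN24, 87.1 CPM in WT 1, and 102 and 81.2 CPM in WT 2 and WT 3. MPTN24 was above all other libraries, and MPTN and WT overlapped. ACACA rose 1.37-fold in MPTN24 over WT (log2 change 0.45 ± 0.13, edgeR adjusted p = 0.0215) and fell by 0.47 ± 0.13 in MPTN against MPTN24 (edgeR adjusted p = 0.0236). Both calls were close to the threshold. The rise was lost without MPTN24 1, MPTN24 3 or WT 3 (edgeR adjusted p = 0.069, 0.075 and 0.08), and the fall without MPTN 2, MPTN 3 or any single MPTN24 library (edgeR adjusted p = 0.051 to 0.086). MPTN against WT gave -0.02, with an interval of -0.30 to 0.25.

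ACACB (ENSG00000076555, chromosome 12, 109116595 to 109268226), the carboxylase at the mitochondrial surface whose malonyl-CoA is known to restrain fatty acid oxidation, had few counts. It was at 2.48, 3.07 and 2.30 CPM in MPTN, 2.52, 2.70 and 2.94 CPM in MPTN24, 1.48 CPM in WT 1, and 1.39 and 1.27 CPM in WT 2 and WT 3, with 93 to 241 counts a library. Both drug-exposed groups were above all WT libraries, and WT 1 was here the highest of the WT libraries. ACACB rose 1.97-fold in MPTN24 over WT (log2 change 0.98 ± 0.23, edgeR adjusted p = 0.00798) and 1.90-fold in MPTN over WT (0.93 ± 0.23, edgeR adjusted p = 0.00532). Neither rise passed limma's test on log2 of FPKM plus 0.1 (limma adjusted p = 0.16 and 0.12). The number of counts per unit of FPKM, relative to the library, varied between 1.54 and 3.12 for ACACB, so its FPKM are less steady than its counts.

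FASN (ENSG00000169710, chromosome 17, 82078338 to 82098294, minus strand), the multifunctional synthase that makes palmitate, was highest in MPTN24. It was at 802, 836 and 902 CPM in MPTN, 1996, 1579.6 and 2000.5 CPM in MPTN24, 393 CPM in WT 1, and 809 and 718 CPM in WT 2 and WT 3. MPTN24 lay far above all other libraries, and MPTN overlapped WT through WT 2. FASN rose 2.90-fold in MPTN24 over WT (log2 change 1.54 ± 0.22, edgeR adjusted p = 0.00109; 2.43-fold without WT 1) and fell by 1.13 ± 0.22 in MPTN against MPTN24 (edgeR adjusted p = 0.00615). For MPTN against WT the change was 0.40, with an interval of -0.07 to 0.88 (edgeR adjusted p = 0.177), and 0.15 without WT 1. Without WT 2 that change was 0.607 and passed the test (edgeR adjusted p = 0.048).

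ELOVL6 (ENSG00000170522, chromosome 4, 110045846 to 110199199, minus strand), the elongase of palmitate, did not follow FASN. It was at 34.6, 33.4 and 29.8 CPM in MPTN, 37.9, 42.1 and 44.1 CPM in MPTN24, 38.0 CPM in WT 1, and 46.0 and 43.1 CPM in WT 2 and WT 3. MPTN was below all other libraries, and MPTN24 overlapped WT. ELOVL6 fell by 0.38 ± 0.11 in MPTN against WT (edgeR adjusted p = 0.0151), a call that was lost without MPTN 3 or WT 2 (edgeR adjusted p = 0.056 and 0.065). In FPKM the means were 6.12 in MPTN and 6.66 in WT, the groups overlapped, and limma on log2 FPKM made no call (highest limma adjusted p = 0.53). The counts of ELOVL6 per unit of FPKM, relative to the library, were 1.51 to 1.78 in MPTN and 1.72 to 1.97 in WT. MPTN against MPTN24 gave -0.34 ± 0.11 (edgeR adjusted p = 0.0515), which passed without WT 1 (edgeR adjusted p = 0.0224) and, at an edgeR adjusted p of 0.05, without WT 2. MPTN24 against WT gave -0.03, with an interval of -0.27 to 0.20.

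SCD (ENSG00000099194, chromosome 10, 100347233 to 100364826), the stearoyl-CoA desaturase that makes oleate and palmitoleate, was the most abundant of the 10 by group mean. It was at 1961, 1984 and 1638 CPM in MPTN, 3236, 3161 and 3157 CPM in MPTN24, 229 CPM in WT 1, and 1655 and 1434 CPM in WT 2 and WT 3. MPTN24 was above every other library, MPTN overlapped WT through WT 2, and WT 1 was at 0.148 of the mean of WT 2 and WT 3. In MPTN24 against WT the log2 change was 1.53 ± 0.65 and did not pass (edgeR adjusted p = 0.153). Without WT 1 SCD rose by 1.04 ± 0.11 (edgeR adjusted p = 3.57e-05), or 2.06-fold. In MPTN against MPTN24 the change was -0.78 ± 0.64 (edgeR adjusted p = 0.507), and without WT 1 SCD fell by 0.77 ± 0.09 (edgeR adjusted p = 8.69e-05). In MPTN against WT it was 0.75, with an interval of -0.80 to 2.30, and 0.27 without WT 1 (edgeR adjusted p = 0.425 and 0.0603). The processed pseudogene SCDP1 was at or below 0.109 CPM.

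The desaturases of polyunsaturated chains were at lower levels. FADS1 (ENSG00000149485, chromosome 11, 61799627 to 61829318, minus strand), which makes arachidonate, was at 54.5, 58.2 and 52.4 CPM in MPTN, 68.5, 67.0 and 67.0 CPM in MPTN24, 31.4 CPM in WT 1, and 51.8 and 49.4 CPM in WT 2 and WT 3. The 3 groups did not overlap, although MPTN 3 was close to WT 2. FADS1 rose 1.53-fold in MPTN24 over WT (log2 change 0.61 ± 0.15, edgeR adjusted p = 0.0103; 1.33-fold without WT 1). MPTN against WT gave 0.32 (edgeR adjusted p = 0.115), or 0.12 without WT 1, and passed only without WT 2 among the single libraries left out (0.444, edgeR adjusted p = 0.045). MPTN against MPTN24 gave -0.30 ± 0.15 (edgeR adjusted p = 0.212), a fall without WT 1 (edgeR adjusted p = 0.0176).

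FADS2 (ENSG00000134824, chromosome 11, 61792980 to 61867354), which takes the first step on linoleate, was at 20.7, 19.2 and 23.1 CPM in MPTN, 26.0, 21.7 and 27.0 CPM in MPTN24, 13.7 CPM in WT 1, and 13.1 and 13.8 CPM in WT 2 and WT 3. Both drug-exposed groups were above WT, they overlapped each other, and the WT libraries were within 1 CPM of each other. FADS2 rose 1.84-fold in MPTN24 over WT (log2 change 0.88 ± 0.12, edgeR adjusted p = 0.000404) and 1.55-fold in MPTN over WT (0.63 ± 0.12, edgeR adjusted p = 0.000972). MPTN against MPTN24 gave -0.25, with an interval of -0.50 to 0.01 (edgeR adjusted p = 0.193). In the deposited coordinates FADS1 lies wholly inside the span of FADS2 on the other strand. Their annotated exons share 490 bases, which is 4.79% of FADS1 and 4.44% of FADS2, and the kit is not stranded, so reads there cannot be assigned to either gene.

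Within WT, the members separated by how far WT 1 was from the other libraries. The ratio of WT 1 to the mean of WT 2 and WT 3 was 0.148 for SCD, 0.421 for SREBF1, 0.515 for FASN, 0.537 for ACSS2, 0.620 for FADS1 and 0.637 for ACLY. ELOVL6 at 0.853, ACACA at 0.950, FADS2 at 1.02 and ACACB at 1.11 were close to the other WT libraries. This is 1 library, so these ratios carry no test.

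Levels can be compared between genes only per length, in FPKM. SCD had the highest mean in all 3 groups, at 335 ± 45.3 FPKM in MPTN, 549.6 ± 5.15 in MPTN24 and 186 ± 130.3 in WT (mean ± SD, n = 3 each). In WT 1 alone SCD was at 36.6 FPKM, below ACLY at 47.0 and FASN at 39.9 FPKM. ACACB was the lowest, at 0.309 ± 0.063, 0.311 ± 0.079 and 0.168 ± 0.068 FPKM in MPTN, MPTN24 and WT. In MPTN the order below SCD was SREBF1 at 97.0, FASN at 96.0, ACLY at 47.7, ACSS2 at 26.5, FADS1 at 12.0, ACACA at 9.86, FADS2 at 6.95 and ELOVL6 at 6.12 FPKM, and only SREBF1 and FASN, and FADS1 and ACACA, overlapped as neighbours. In MPTN24 it was FASN at 201, SREBF1 at 106, ACLY at 85.7, ACSS2 at 32.9, FADS1 at 14.2, ACACA at 13.1, FADS2 at 8.08 and ELOVL6 at 7.61 FPKM, and only FADS2 and ELOVL6 overlapped. In WT, with WT 1 included, SCD, ACLY at 68.2, FASN at 67.8 and SREBF1 at 36.8 FPKM overlapped in turn, as did ACSS2 at 11.6, ACACA at 9.26, FADS1 at 8.91 and ELOVL6 at 6.66 FPKM, and FADS2 stood below at 4.13 FPKM. FASN was thus above SREBF1 in MPTN24 and level with it in MPTN.

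**Figure D3:**
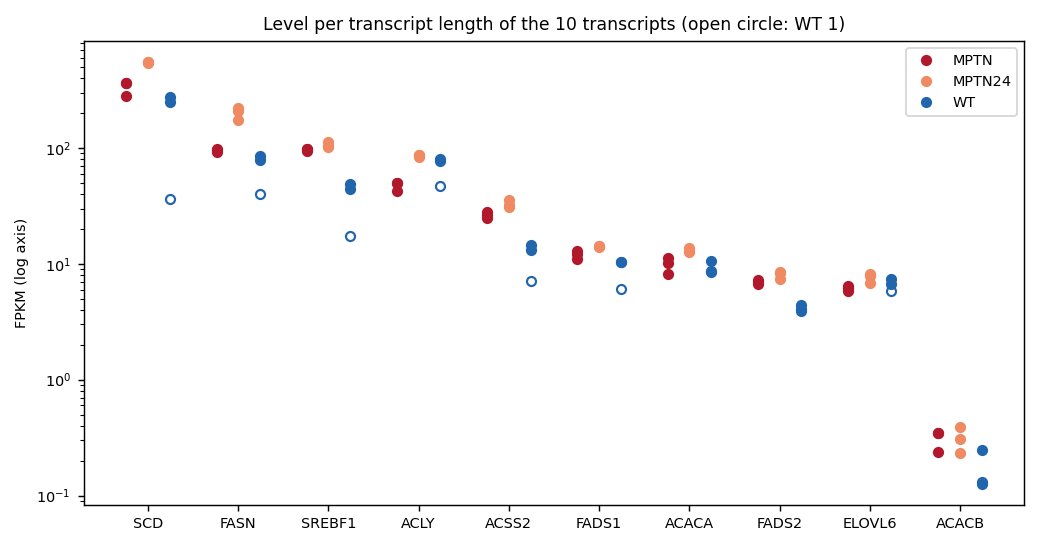
FPKM of each transcript (log axis) in every library of MPTN, MPTN24 and WT, ordered by level; the open circle is WT 1. ACACB is at the bottom in every library, and SCD is at the top in every library but WT 1. There SCD, at 36.6 FPKM, lies below ACLY and FASN. SREBF1 and FASN lie at the same level in MPTN, at 97.0 and 96.0 FPKM on average.

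The level of an enzyme transcript relative to SREBF1 separated MPTN from the other groups. The FPKM ratio of FASN to SREBF1 was 0.944 to 1.02 in MPTN, 1.71 to 2.03 in MPTN24, 2.28 in WT 1, and 1.91 and 1.62 in WT 2 and WT 3. That of ACLY to SREBF1 was 0.438 to 0.530 in MPTN, 0.769 to 0.834 in MPTN24, 2.69 in WT 1, and 1.79 and 1.60 in WT 2 and WT 3. For SCD the ratio was 2.90 to 3.82 in MPTN, 4.87 to 5.45 in MPTN24, 2.09 in WT 1, and 6.15 and 5.14 in WT 2 and WT 3. For ACSS2 it moved least, at 0.264 to 0.286 in MPTN, 0.285 to 0.340 in MPTN24, 0.404 in WT 1, and 0.293 and 0.302 in WT 2 and WT 3. FASN and ACLY were thus lower per SREBF1 transcript in every MPTN library than in any other library, SCD was so only with WT 1 set aside, and the ACLY ratio was also lower in MPTN24 than in WT. These ratios are descriptions, with no test.

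**Figure D4:**
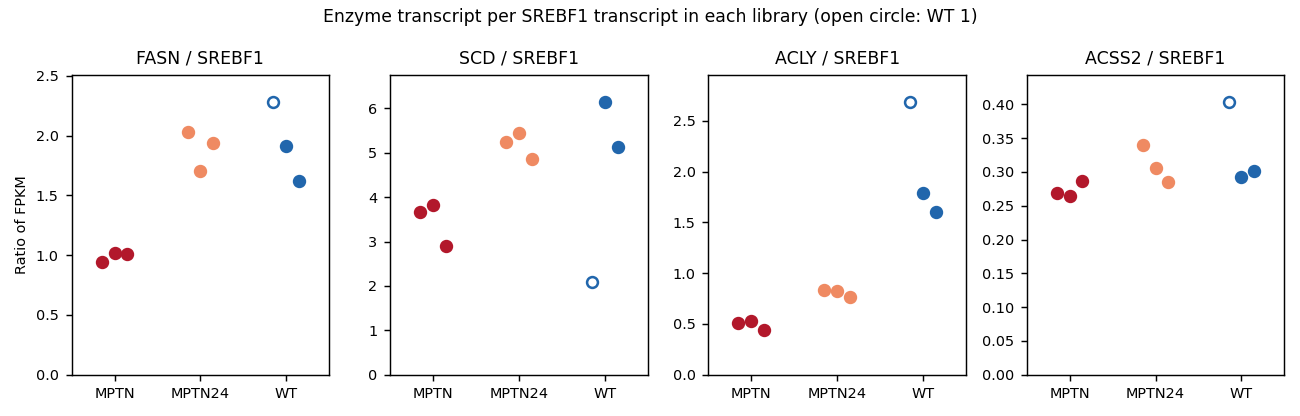
FPKM of FASN, SCD, ACLY and ACSS2 divided by the FPKM of SREBF1 in the same library (linear axes from 0), for MPTN, MPTN24 and WT; the open circle is WT 1. The FASN ratio is 0.944 to 1.02 in MPTN and at least 1.62 in every other library.

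Over the 9 libraries, which share their 3 groups and WT 1, the log2 CPM of SREBF1 had a Pearson r of 0.987 with ACSS2, 0.923 with FADS1 and 0.917 with SCD, but of 0.122 with ACLY and -0.246 with ELOVL6. SCD and FADS1 had an r of 0.988, and ACLY and ELOVL6 one of 0.856. Among 10572 genes that averaged 5 CPM or more, those outside the members most like SREBF1 were PCK2 (r = 0.998), TMPRSS4 (0.995), AARS1 (0.992), TOX2 (0.992) and MR1 (0.992). Those most like FASN included LSS (0.991), an enzyme of cholesterol synthesis, DYSF (0.984), LINC00467 (0.981) and ACAD10 (0.976). Those most like SCD included AC092490.1 (0.994), ACSF2 (0.983), the lysosomal lipase gene LIPA (0.982) and KRT15 (0.975). PCK2 and AARS1 were at 113 to 129 and 425 to 440 CPM in MPTN, 124 to 128 and 424 to 469 CPM in MPTN24, 33.1 and 236 CPM in WT 1, and 64.2 to 68.9 and 323 to 331 CPM in WT 2 and WT 3. With 9 points and 10572 candidates these values describe a shape and carry no test.

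Of 7 genes for the LXRs and their targets, 5 rose and 0 fell in MPTN24 against WT, and 5 rose and 1 fell in MPTN against WT, with and without WT 1. With all libraries 23.2% and 36.4% of all tested genes were called in either direction, and without WT 1 27.3% and 37.1%. The medians were 0.71 and 0.65 on the log2 scale, against 0.005 and 0.02 over all tested genes. ABCG1, an exporter of cholesterol, was at 93.1, 97.4 and 93.8 CPM in MPTN, 35.4, 32.3 and 34.3 CPM in MPTN24, 1.41 CPM in WT 1, and 6.96 and 5.11 CPM in WT 2 and WT 3. ABCA1, another exporter, was at 103.4, 103.4 and 75.8 CPM in MPTN, 53.5, 62.4 and 64.6 CPM in MPTN24, 13.2 CPM in WT 1, and 29.3 and 22.8 CPM in WT 2 and WT 3. Neither gene overlapped between any pair of groups. ABCG1 rose with a log2 change of 4.39 and ABCA1 with one of 2.11 in MPTN against WT (edgeR adjusted p = 0.000609 and 0.000164). LPCAT3, a lysophospholipid acyltransferase, rose in both comparisons with WT (log2 change 0.71 and 0.35 in MPTN24 and MPTN), but the call in MPTN was lost without MPTN 2 or WT 3 (edgeR adjusted p = 0.081 and 0.091). NR1H3, the gene of LXR alpha, fell by 1.05 in MPTN against MPTN24 (7.20 against 14.96 CPM, edgeR adjusted p = 0.000159) and by 0.50 in MPTN against WT (edgeR adjusted p = 0.00727). In MPTN against MPTN24, 0 of the 7 rose and 2 fell, beside a background of 14.5% (7.85% higher, 6.70% lower). The second fall, of LPCAT3, was lost in 10 of 19 other settings, among them without any single MPTN library, MPTN24 1 or MPTN24 3, each of which left 1. Without WT 1, 3 rose, beside a background of 20.3% (10.5% higher, 9.81% lower), and ABCG1 had a log2 change of 1.48 (edgeR adjusted p = 9.58e-07, against 0.0713 with all libraries). Without WT 2, 3 rose as well, where 1375 of 17535 tested genes were called higher.

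The sterol branch of the SREBP targets, 9 genes of cholesterol synthesis and feedback, had no gene that rose in MPTN. In MPTN24 against WT 3 rose and 0 fell, beside a background of 23.2%. LSS was at 177 to 192 CPM in MPTN24, 58.9 CPM in WT 1, and 100.9 and 100.8 CPM in WT 2 and WT 3. MVD was at 68.3 to 73.4 CPM in MPTN24, 27.0 CPM in WT 1, and 40.9 and 45.4 CPM in WT 2 and WT 3. FDPS was at 263 to 286 CPM in MPTN24, 143 CPM in WT 1, and 175 and 194 CPM in WT 2 and WT 3. All 3 were higher in every MPTN24 library than in any WT library. Without WT 1 the same comparison had 3 higher and 4 lower, beside a background of 27.3% (12.9% higher, 14.4% lower). The lower ones included HMGCS1, IDI1 and SQLE, of which HMGCS1 changed most at -0.64 (edgeR adjusted p = 0.00178). In MPTN against WT 0 rose and 3 fell, beside a background of 36.4%, and without WT 1 7 fell, beside 37.1% (18.7% lower). SQLE, at 81.6 to 98.9 CPM in MPTN, 111 CPM in WT 1, and 197 and 201 CPM in WT 2 and WT 3, fell by 0.88 (edgeR adjusted p = 0.00233) and passed under every setting tried. HMGCS1 lost its call in 9 of 19 other settings, and leaving out any single library other than WT 1 left 1 or 2 of the 3 calls. In MPTN against MPTN24 0 rose and 4 fell, beside a background of 14.5%, and without WT 1 all 9 fell, beside 20.3% (9.81% lower). The 4 with all libraries were MVD, FDPS, LSS and SQLE (log2 -0.92, -0.90, -0.90 and -0.77). SQLE lost that call in 3 of 19 other settings, without MPTN 3 (edgeR adjusted p = 0.08) and with limma on FPKM plus 0.1 or plus 1 (limma adjusted p = 0.055 and 0.052).

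Of 9 genes that supply precursors and NADPH, 2 rose and 1 fell in MPTN24 against WT, and 1 rose and 3 fell in MPTN against WT, shares near the 23.2% and 36.4% of all tested genes called in these comparisons. In MPTN against MPTN24 0 rose and 4 fell, beside a background of 14.5%. Without WT 1, 2 rose and 4 fell in MPTN against WT, beside a background of 37.1%. SLC25A1, the carrier that exports mitochondrial citrate, was at 195 ± 30.6 CPM in MPTN, 248 ± 20.8 CPM in MPTN24 (SD, n = 3), 103 CPM in WT 1, and 128 and 161 CPM in WT 2 and WT 3, and it rose in both comparisons with WT (log2 change 0.58 and 0.92, edgeR adjusted p = 0.00759 and 0.0011). ACAT2, a cytosolic thiolase, was at 18.9 ± 0.61 CPM in MPTN, 44.2 ± 1.66 CPM in MPTN24, 29.8 CPM in WT 1, and 36.9 and 46.8 CPM in WT 2 and WT 3, and it fell in both comparisons of MPTN (log2 change -1.01 and -1.23). CS, which makes citrate in mitochondria, and PDHA1, a subunit of pyruvate dehydrogenase, fell by 0.54 and 0.62 in MPTN against WT. Their falls in MPTN against MPTN24 (edgeR adjusted p = 0.0186 and 0.03) were lost in 6 and 8 of 19 other settings, and the 4 falls were 1 without MPTN24 1 and 2 without MPTN 1 or MPTN24 3. In MPTN24 against WT, the fall of PDHA1 was lost in 9 of 19 settings, including those without any single MPTN24 library, WT 2 or WT 3 or MPTN 1, and the 2 rises were 1 without MPTN24 1 and 3 without WT 3.

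Among 16 tested partners of elongation and desaturation, MPTN differed from both other groups in a few genes. FADS3, a desaturase of sphingoid bases, was at 148 ± 15.1 CPM in MPTN, 88.6 ± 2.16 CPM in MPTN24 and 88.6 ± 3.64 CPM in WT, and it rose by 0.74 in both comparisons of MPTN (edgeR adjusted p = 0.0002 against MPTN24 and 4.78e-05 against WT). ELOVL7 rose as well (0.96 and 0.71), and ELOVL5, the elongase of polyunsaturated chains, fell by 0.58 and 0.52. HSD17B12, the ketoreductase of the elongation cycle, fell by 0.49 and 0.57. In all, 3 rose and 2 fell in MPTN against MPTN24, 3 rose and 3 fell in MPTN against WT, and 0 rose and 2 fell in MPTN24 against WT, beside backgrounds of 14.5%, 36.4% and 23.2%. The share in MPTN against WT was thus near the background, and that in MPTN24 against WT below it. The 2 falls in MPTN24, HACD2 and HACD3, were lost in 8 and 10 of 19 other settings, among them without MPTN24 1, MPTN24 2, MPTN24 3, WT 2 or WT 3, each of which left 0. SCD5, the other stearoyl-CoA desaturase, was at 33.4 to 39.5 CPM in MPTN, 31.3 to 35.3 CPM in MPTN24 and 31.5 to 33.0 CPM in WT, and it passed in none of the 3 comparisons; it was named after its values were seen.

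Of 12 tested genes of glycerolipid assembly and droplets, 5 rose and 0 fell in MPTN24 against WT, 4 rose and 1 fell in MPTN against WT, and 0 passed in MPTN against MPTN24. Over all tested genes 23.2%, 36.4% and 14.5% were called in these comparisons, so the share in MPTN against WT was near the background. DGAT2, which makes triglyceride, was at 10.4 ± 1.42 CPM in MPTN, 9.32 ± 1.12 CPM in MPTN24 (SD, n = 3), 7.03 CPM in WT 1, and 3.97 and 4.46 CPM in WT 2 and WT 3 (log2 change 1.02 in MPTN and 0.86 in MPTN24 against WT). LPIN3 and AGPAT1 also rose in both comparisons with WT. LPIN3 lost its call in MPTN24 without MPTN24 1, MPTN24 3, WT 2 or WT 3 (edgeR adjusted p = 0.1, 0.088, 0.11 and 0.089) and with only the 2 groups fitted (0.053), and DGAT2 lost its own without MPTN24 1 (edgeR adjusted p = 0.052). GPAM, the first acyltransferase of the glycerolipid route, fell by 0.62 in MPTN against WT. Without MPTN24 1 the 5 rises of MPTN24 were 1, and without MPTN24 3, WT 2 or WT 3 they were 3. The 4 rises of MPTN were 8 with upper-quartile scaling. Without WT 1 2 rose and 2 fell in MPTN against MPTN24, beside a background of 20.3%.

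**Figure D5:**
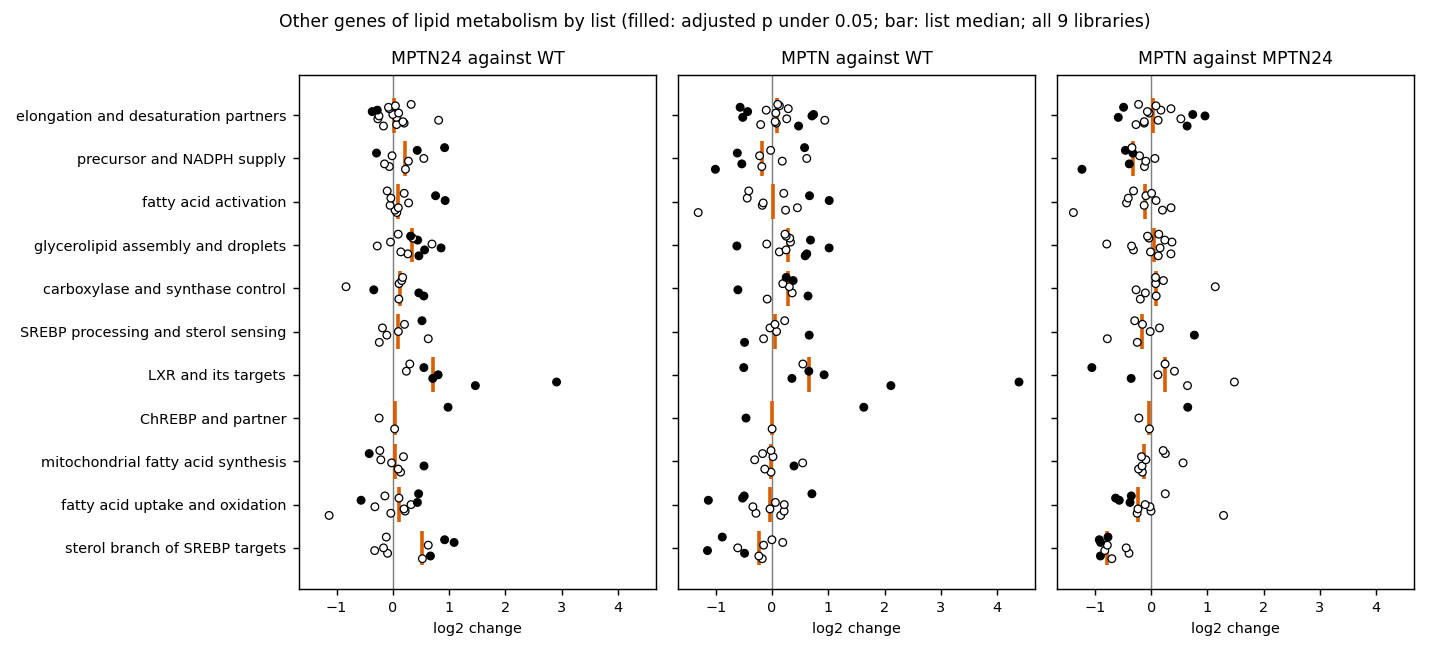
Log2 change (x axis) of single genes in 11 lists of lipid metabolism for 3 comparisons, from all 9 libraries; filled points have an adjusted p under 0.05 and bars are list medians. The sterol branch lies to the left of 0 in MPTN against MPTN24 (median -0.78) and the LXR list to the right in both comparisons with WT (medians 0.71 and 0.65).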

How the data were processed

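Messenger RNA of 9 HSC-3 libraries was measured, 3 each for MPTN, MPTN24 and WT, grouped by the sample names. Per the labels' protocols, libraries were made from Trizol RNA with an Illumina TruSeq kit, which does not mark strand. The submitters' processing notes name CASAVA 1.8, Trimmomatic, FastQC, HISAT2, StringTie, edgeR and GRCh38; order, settings and annotation are not given in the sources used here. The authors deposited estimated counts (whole numbers) for 60612 genes and a second table whose unit, FPKM, was inferred from the values. In the count table, 4 was met 6716 times, 3 was met 4548 times and 5 was met 3190 times, so a read pair may often give 4 counts; dividing counts by 4 was tried as an alternative.

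The filter was filterByExpr with a minimum count of 10 and a total of 15. After TMM scaling, edgeR 4.0.16 (R 4.3.3) fitted a robust quasi-likelihood model to all 9 libraries, and each comparison was a contrast in it. Benjamini-Hochberg adjustment ran over all tested genes, and an adjusted p under 0.05 was called. SE is the log2 change divided by the root of F, and 95% intervals use the moderated degrees of freedom. Where a library was left out, the model was refitted. CPM use TMM-scaled library sizes, with a prior count of 2 for correlations. Library totals limit precision most for ACACB. The fit was tested on simulated counts.

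The members, the 11 pathway lists (110 entries, all matched) and the markers were chosen with earlier results of these data known. INSIG1 is an entry of both the SREBP processing list and the sterol branch. Named genes are all members, the list genes past the threshold with up to 3 largest in each direction per list and comparison, and the 5 genes most like SREBF1, FASN and SCD; a few genes of these rules are not reported here. Alternatives were limma 3.58.1 (log2 FPKM, pseudocount 0.1 or 1), DESeq2 1.42.0, upper-quartile and RLE scaling, leaving out each library, a block for the replicate number, fits to 2 groups at a time, counts divided by 4, and either no filter or a floor of 1 CPM in 3 libraries. List counts without WT 1 and under the other settings were added after the data were seen. Promoter windows are from RefSeq (GRCh38.p14) and exons from GENCODE 29. No value column was left out.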

Additional observations from a re-analysis of the deposited data

How the results depend on the processing

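Of 30 member results (10 genes in 3 comparisons), 15 kept direction and side of the threshold under all 19 alternatives, and of 570 alternative values 522 did so; 18 lost a call, 18 gained one and 12 changed sign. The 12 sign changes were all of values near 0 that never passed. For ELOVL6 in MPTN24 against WT (-0.03) they were 0.0229 with upper-quartile scaling, 0.0238 without MPTN24 1, 0.0276 without WT 2, and 0.193 and 0.171 with limma on FPKM plus 0.1 and plus 1, and leaving out libraries gave -0.108 to 0.0276. For ACACA in MPTN against WT (-0.02) they were 0.0424 with upper-quartile scaling, 0.118 without MPTN 3, 0.0755 without WT 2, and 0.0847 and 0.0778 with limma, and leaving out libraries gave -0.128 to 0.118. For ACACB in MPTN against MPTN24 (-0.05) they were 0.031 without MPTN 3 and 0.00639 without MPTN24 3, and leaving out libraries gave -0.182 to 0.031. The count of 2 members lower in MPTN against WT was 1 with limma at either pseudocount, and 1 to 2 over the libraries left out; ELOVL6 was the call lost (limma adjusted p = 0.53 and 0.52). The count of 3 lower in MPTN against MPTN24 was 7 with only the 2 groups fitted and 2 to 7 over the libraries left out, the 7 being without WT 1. ELOVL6 in that comparison passed in 8 alternatives, and ACACA lost its call in 7. SCD in MPTN24 against WT passed with DESeq2 (DESeq2 adjusted p = 0.0077). The rises of ACACB against WT were lost with limma. Limma on FPKM plus 0.1 put the median of all genes at 0.119 in MPTN against WT, against 0.0207 with edgeR. The causes of these differences were not tested. With the replicate block, 7 members rose and 0 fell in MPTN24 against WT, 4 and 2 in MPTN against WT, and 0 and 3 in MPTN against MPTN24, as without it. After group means were subtracted, same-numbered libraries had correlations of -0.0281 to 0.0699, and differently numbered ones -0.0623 to 0.0604. The numbers thus showed no pairing, though 3 libraries a group cannot exclude one.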

Other observations

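FABP5, a carrier of fatty acids in the cell, was at 35.4, 32.2 and 39.8 CPM in MPTN, 52.7, 55.1 and 51.4 CPM in MPTN24, and 78.9, 78.1 and 78.2 CPM in WT, with no overlap between groups and with WT 1 level with WT 2 and WT 3. It fell by 1.13 on the log2 scale in MPTN against WT (edgeR adjusted p = 2.49e-06), by 0.57 in MPTN against MPTN24 (edgeR adjusted p = 0.0018) and by 0.56 in MPTN24 against WT (edgeR adjusted p = 0.00152). HADHA, a subunit of the mitochondrial trifunctional protein of beta-oxidation, was at 214 ± 4.84 CPM in MPTN, 331 ± 13.1 CPM in MPTN24 and 307 ± 14.0 CPM in WT (SD, n = 3), and it fell in both comparisons of MPTN (-0.63 against MPTN24 and -0.52 against WT). Of 11 tested genes of uptake and oxidation, 0 rose and 4 fell in MPTN against MPTN24 (2 to 4 over the other settings), 1 rose and 3 fell in MPTN against WT, and 2 rose and 1 fell in MPTN24 against WT (1 to 3 rises over the other settings), beside backgrounds of 14.5%, 36.4% and 23.2% of all tested genes. The list medians were -0.23, -0.04 and 0.11 on the log2 scale, and the counts against WT were near the background. PPARA, a nuclear receptor that drives oxidation genes, rose by 0.71 in MPTN against WT (edgeR adjusted p = 0.0005).

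TXNIP, a target of the glucose-sensing factor ChREBP, was at 376, 377 and 342 CPM in MPTN, 242, 231 and 225 CPM in MPTN24, 139 CPM in WT 1, and 104 and 110.3 CPM in WT 2 and WT 3. It rose in all 3 comparisons, with a log2 change of 1.63 in MPTN against WT, 0.98 in MPTN24 against WT and 0.65 in MPTN against MPTN24 (edgeR adjusted p = 3.4e-07, 0.000139 and 0.00146), and it passed under every setting tried. The ChREBP gene itself, MLXIPL, was at or below 0.156 CPM in every library and did not pass the filter on low counts. MLXIP, of the same list, was at 90.1 to 98.9 CPM in MPTN, 143 CPM in WT 1, and 132.7 and 113.3 CPM in WT 2 and WT 3. It fell in MPTN against WT under every setting tried. MID1IP1, which promotes assembly of the acetyl-CoA carboxylases, rose in both comparisons with WT (0.64 in MPTN and 0.55 in MPTN24). PRKAA1, a catalytic subunit of the kinase AMPK that inhibits them, fell by 0.61 in MPTN against WT (edgeR adjusted p = 0.000318). PRKAB2 and PRKAG1, the genes of other AMPK subunits, rose in that comparison, so the subunits went both ways. PRKAB2 lost its call in 1 of 19 other settings and PRKAG1 in 9. In that list of 8 tested genes, 3 rose and 1 fell in MPTN against WT (1 to 4 rises over the other settings), beside a background of 36.4%. In MPTN24 against WT, 1 of 7 genes of SREBP processing rose and 0 fell, beside a background of 23.2%. In MPTN against WT, 1 rose and 1 fell (36.4%), and in MPTN against MPTN24, 1 rose and 0 fell (14.5%). INSIG2, which holds SREBP precursors in the membrane, rose in both comparisons of MPTN (0.77 against MPTN24 and 0.66 against WT). SREBF2 rose by 0.52 in MPTN24 against WT. FBXW7 fell in MPTN against WT, a call lost in 2 of 19 other settings. INSIG1 was at 69.2 to 70.5 CPM in MPTN and 109 to 130 CPM in MPTN24. It was at 24.5 CPM in WT 1, and 104.7 and 103.4 CPM in WT 2 and WT 3. INSIG1 passed in no comparison with all libraries, and without WT 1 it fell in MPTN against both MPTN24 and WT. Of 10 tested genes of fatty acid activation, SLC27A1 and SLC27A3 rose in both comparisons with WT, and with all libraries no other passed there. The backgrounds were 23.2% in MPTN24 and 36.4% in MPTN against WT, so the shares of this list were not above them. Without WT 1, 3 others fell in MPTN against WT, beside a background of 37.1%. Of 8 genes of mitochondrial fatty acid synthesis, 1 rose and 1 fell in MPTN24 against WT, 1 rose and 0 fell in MPTN against WT, and 0 passed in MPTN against MPTN24, beside backgrounds of 23.2%, 36.4% and 14.5%. The rise in MPTN against WT, of HSD17B8, was lost in 10 of 19 other settings, among them without WT 1, WT 2, MPTN 2, MPTN 3 or any single MPTN24 library (edgeR adjusted p = 0.057 to 0.18). In MPTN24 against WT, both calls, HSD17B8 and NDUFAB1, were lost without MPTN24 1.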
